A study of Bos taurus with 6 samples.

Results

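Myoglobin, the haemoglobin chains and the genes that make and break down haem and that carry, take up and store iron were examined in the longissimus dorsi, the long back muscle, of 6 steers. The 10 genes were MB, HBA, HBB, ALAS1, ALAS2, FTH1, FTL, TFRC, TF and HMOX1, chosen by function. Every probe set of the array annotated with exactly 1 of these symbols was taken, which gave 13 of 24016 probe sets: 4 for HBB and 1 for each other gene. Genes that a muscle fibre or other resident cell can use itself (7 genes, 7 probe sets) were kept apart from HBA, HBB and ALAS2, the genes of blood cells (3 genes, 6 probe sets).

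The arrays came from 3 Japanese Black steers, a beef breed, and 3 Holstein steers, a dairy breed, with 1 array per animal. All 6 animals had received energy-rich feeding, so the comparison is between breeds on 1 feed. The labels give no age, no pairing of animals and no further treatment. All 8 annotated markers of the skeletal muscle fibre were bright in every array, for example ACTA1, the muscle actin, between 13606 and 15099 intensity units.

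In muscle, haem is the oxygen-binding group of myoglobin and of the respiratory chain cytochromes. Its synthesis starts with aminolevulinate synthase, encoded by ALAS1 in most cells and by ALAS2 in developing red cells, and haem oxygenase (HMOX1) opens the ring and frees the iron. Transferrin (TF) carries iron in plasma, the transferrin receptor (TFRC) brings it into cells, and ferritin, built of heavy (FTH1) and light (FTL) chains, stores it. Iron regulatory proteins bind the ferritin and TFRC messengers; they act on ferritin through translation and on TFRC through stability of the messenger. Arrays measure the messenger and not the protein.

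No difference between the breeds was called for any of the 10 genes. Of the 13 probe sets 11 were bright enough to be tested, and they covered all 10 genes; the others were dim HBB probe sets. With limma's moderated test 0 of 11 passed an adjusted p of 0.05, against 0.0167% of all 18012 probe sets tested, and 0 of 11 had an unadjusted p under 0.05, against 12.6% of all. The unpaired form of the methods' t-test gave 0 adjusted and 1 of 11 unadjusted, for ALAS2, against 10.03% of all probe sets. Adjusted p of the 11 lay between 0.480 and 0.988. The breeds did not overlap at 2 of 11, against 19.8% of all probe sets tested. The differences were positive (Japanese Black higher) at 4 and negative at 7, with a median of -0.02 on the log2(signal + 16) scale, where the median over all probe sets tested was 0.01.

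**Figure D1:**
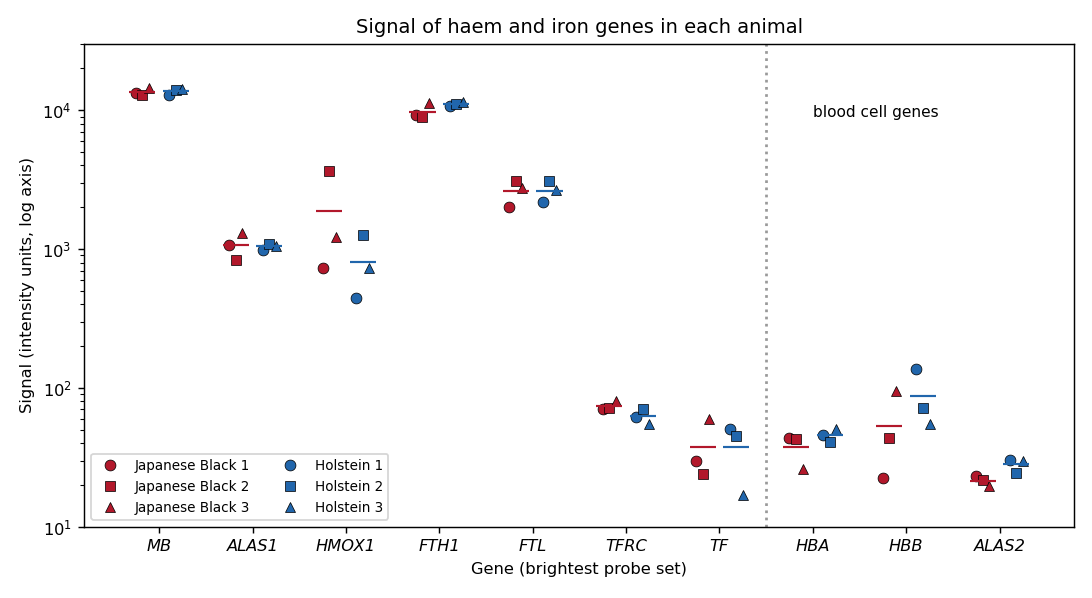
Signal in intensity units (log axis) of the brightest probe set of each gene; each point is 1 animal and each horizontal line the mean of a breed (n = 3). MB and FTH1 lie close together in all animals, HMOX1 stands highest in Japanese Black 2 at 3645, and the blood cell genes to the right of the dotted line lie at 137 or lower.

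MB encodes myoglobin, the oxygen store that gives red muscle its colour. Its probe set read 13284, 12966 and 14409 in Japanese Black 1, 2 and 3 and 12851, 13979 and 14206 in Holstein 1, 2 and 3. The animals of the breeds were interleaved, with the lowest value in Holstein 1 and the highest in Japanese Black 3, a 1.12-fold range over all 6 animals. The means were 13553 ± 758 (SD, n = 3) and 13679 ± 726 (SD, n = 3). The log2 difference was -0.01 (SE 0.09, adjusted p = 0.962), with a 95% interval from -0.22 to 0.19. That interval leaves room for a level at most 1.14-fold higher or 1.16-fold lower in Japanese Black on this scale. The sign changed in 5 of 15 alternatives, median centring among them. The brightest probe set of each array read between 16534 and 22468, so MB lies near the upper end of the range; whether the signal still follows the messenger in proportion there was not tested.

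Over the 6 arrays the genes whose log2 levels followed MB most closely were CALCOCO1 (r = 0.98, rho = 0.94), CST3 (r = 0.98, rho = 1), APOD (r = 0.98, rho = 0.94) and TBC1D13 (r = 0.97, rho = 0.94). Of 8049 genes compared 94 had r above 0.9. This is a description of 6 arrays, in which all genes of an array share its RNA, labelling and scaling. The slow fibre genes, which like MB belong to oxidative muscle, were bright. The breeds did not overlap at 3 of the 6 tested, against 19.8% of all probe sets tested. These were the myosin light chain genes MYL3 and MYL2 and the troponin gene TNNC1. MYL2 read 14921, 14467 and 15034 in Japanese Black and 12968, 13372 and 12580 in Holstein, with a log2 difference of 0.19 (SE 0.08, adjusted p = 0.392). TNNC1 differed by only 0.06 (SE 0.08, adjusted p = 0.764). Its probe set was the brightest of the array in every animal except Holstein 3, so its signal lies at the upper end of the range. MYL3 read 3003, 1172 and 2447 in Japanese Black and 5590, 3917 and 5822 in Holstein, opposite in direction, with a log2 difference of -1.29 (SE 0.32, adjusted p = 0.287). Of the 6 slow fibre genes tested 5 were higher and 1 was lower in Japanese Black, 0 passed, and the median was 0.05. That median takes each gene at its brightest probe set. The dimmer tested probe sets of MYH7 (0.41), ATP2A2 (0.29, 0.35 and 0.76) and TNNC1 (0.06) were also higher in Japanese Black. Of the 6 fast fibre genes tested 3 were higher and 3 lower, 0 passed, and the median was 0.01, which became -0.03 after quantile normalization. The fast fibre gene with the smallest p was ACTN3, an alpha-actinin, at -0.34 (SE 0.09, adjusted p = 0.310).

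ALAS1, the first enzyme of haem synthesis outside red cells, read 1071, 835 and 1300 in Japanese Black and 991, 1095 and 1051 in Holstein. Both the lowest and the highest animal were Japanese Black, so the Holstein values lay wholly inside the Japanese Black range. The means were 1069 ± 232 (SD, n = 3) and 1046 ± 52.4 (SD, n = 3). The log2 difference was 0.01 (SE 0.18, adjusted p = 0.988), and its sign changed in 5 of 15 alternatives, quantile normalization among them. The 95% interval ran from -0.40 to 0.42.

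The later steps of haem synthesis were likewise without a called difference. Of 17 genes listed for haem synthesis and transport 9 were annotated and tested; 3 were higher and 6 lower in Japanese Black, 0 passed, and the median was -0.04. The median lay between -0.13 and 0.09 over the alternatives. Those with the smallest p were ABCB6, a mitochondrial porphyrin transporter (0.53, SE 0.23, adjusted p = 0.392), PGRMC1, a haem-binding membrane protein (-0.46, SE 0.20, adjusted p = 0.392), and CPOX, coproporphyrinogen oxidase (0.40, SE 0.20, adjusted p = 0.430). FECH, ferrochelatase, which puts iron into the ring, had a log2 difference of -0.04.

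HMOX1 had the largest within-breed SD of the 11 probe sets tested. Its probe set read 726, 3645 and 1227 in Japanese Black and 446, 1264 and 729 in Holstein. Japanese Black 2 stood alone at the top, with the next animal at 1264, while the remaining Japanese Black animals lay within the Holstein range. The range over all animals was 8.17-fold, and its within-breed SD on the log2 scale was larger than that of 99.4% of all probe sets tested. Japanese Black averaged 1866 ± 1561 (SD, n = 3) against 813 ± 415 (SD, n = 3). This is a log2 difference of 0.98 (SE 0.55, adjusted p = 0.480) with a 95% interval from -0.27 to 2.23. Without Japanese Black 2 it was 0.34 (SE 0.40, adjusted p = 0.789); it was 1.49 without Japanese Black 1 and 1.35 without Holstein 2.

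Among the members FTL was also highest in Japanese Black 2, and ALAS1 and FTH1 were lowest there. The animal did not stand apart in this count: with HMOX1 it was at an extreme at 4 of the 11 tested probe sets, against 6 for Japanese Black 3, 5 for Holstein 1 and 4 for Holstein 3. ALAD, the next enzyme of haem synthesis after ALAS1, read 259 in that animal and between 429 and 756 in the others. BLVRB, a biliverdin reductase downstream of haem oxygenase, read 710 there and between 925 and 1129 in the others. ALAD and BLVRB came from the wider lists and were singled out after their values were seen. HMOX1 is also a gene of macrophages that clear red cells: the mean log2 level of 7 macrophage markers deviated by -0.42 from its average in Japanese Black 2, within a range from -0.46 to 0.61 over the animals. Among these markers CD68 (21.3), AIF1 and C1QB had their lowest value there, while CD14, CSF1R, C1QA and C1QC were lowest in Holstein 1. CD163 was not analysed here. HMOX1 is further known as a heat shock and oxidative stress gene. Relative to its average, the mean log2 level of 10 heat shock genes was -0.02, 0.36 and 0.27 in Japanese Black and -0.14, -0.38 and -0.09 in Holstein, so the list as a whole lay higher in all Japanese Black animals and highest in Japanese Black 2. Of these 10 genes 8 were higher and 2 lower in Japanese Black, 0 passed, 4 had an unadjusted p under 0.05, and the median difference was 0.28. Over all genes at their brightest probe set 48.7% were higher and 11.3% had an unadjusted p under 0.05. HSPH1 read 2732 in Japanese Black 2 against 1006 to 1922 in the other animals. The breed difference of HSPH1 was 0.65 at this probe set, but its dimmer tested probe sets lay the other way, at -0.73 and -0.06. HSPA1A, DNAJB1 and HSPE1 were highest in Japanese Black 3, and the remaining genes of the list in Japanese Black 2. The part of this list's breed difference in that of HMOX1 was not tested. The level of 9 targets of NRF2, the oxidative stress factor, was 0.03 above its average there, within a range from -0.19 to 0.22. Both of these lists were added after the HMOX1 values were seen.

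**Figure D2:**
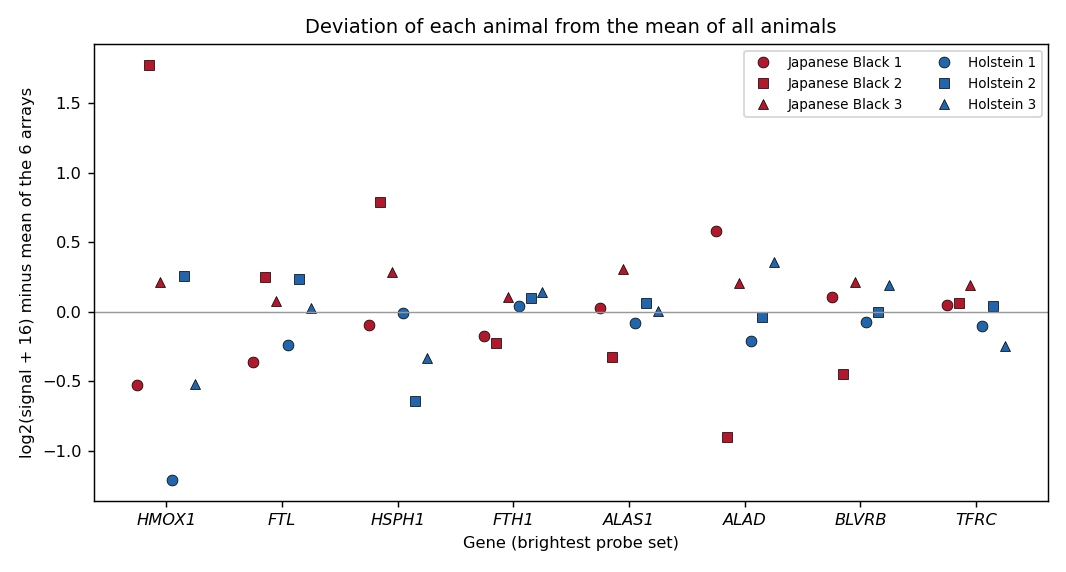
Deviation of each animal from the mean of the 6 arrays, in log2(signal + 16) units, for 5 members (HMOX1, FTL, FTH1, ALAS1, TFRC) and the listed genes HSPH1, ALAD and BLVRB, which were picked after their values were seen. Japanese Black 2 (red square) is the highest animal for HMOX1, FTL and HSPH1 and the lowest for FTH1, ALAS1, ALAD and BLVRB.

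Of the other genes of haem breakdown and scavenging 5 of 7 were annotated and tested; 1 was higher and 4 were lower in Japanese Black, 0 passed, and the median was -0.16. The median was 0.03 without Japanese Black 2 and stayed negative in the other alternatives. HMOX2, the constitutive haem oxygenase, read 31.0, 55.5 and 43.3 in Japanese Black and 91.2, 45.3 and 84.3 in Holstein, which overlapped. Its log2 difference was -0.58 (SE 0.25, adjusted p = 0.395). HP, haptoglobin, the plasma protein that binds free haemoglobin, read 35.0, 114 and 143 in Japanese Black and 38.8, 65.5 and 9.69 in Holstein, with a difference of 1.07 (SE 0.49, adjusted p = 0.410). The third was the biliverdin reductase gene BLVRA (-0.27, SE 0.21, adjusted p = 0.580).

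The ferritin chains were bright in every animal. FTH1 read 9200, 8901 and 11200 in Japanese Black and 10699, 11149 and 11434 in Holstein. Japanese Black 1 and 2 lay below all Holstein animals, and Japanese Black 3 lay among them. The means were 9767 ± 1250 (SD, n = 3) and 11094 ± 371 (SD, n = 3), a log2 difference of -0.19 (SE 0.11, adjusted p = 0.488) with a 95% interval from -0.44 to 0.06. Without Japanese Black 3 the difference was -0.29 (adjusted p = 0.397). Japanese Black 3 is also the array with the highest upper quartile of signal, 205 against 172 to 181.

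FTL read 2023, 3091 and 2742 in Japanese Black and 2198, 3068 and 2650 in Holstein. Each breed had a low, a middle and a high animal at much the same levels. The means were 2619 ± 544 (SD, n = 3) and 2639 ± 435 (SD, n = 3), with a log2 difference of -0.02 (SE 0.19, adjusted p = 0.973) and a 95% interval from -0.45 to 0.41. The light chain had a wider spread within the breeds than the heavy chain, with a within-breed SD of 0.28 against 0.13 on the log2 scale, each at 1 probe set; the difference in spread was not tested. Across the 6 arrays FTL followed HMOX1 (r = 0.77, rho = 0.94, and r = 0.75 without the arrays farthest from the median of HMOX1), 1 of 78 pairs of member probe sets compared as a description.

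TFRC was dim, at 71.0, 71.5 and 80.1 in Japanese Black and 62.0, 70.3 and 54.6 in Holstein. The breeds did not overlap, but the lowest Japanese Black animal was only 0.65 intensity units above the highest Holstein animal. The means were 74.2 ± 5.10 (SD, n = 3) and 62.3 ± 7.86 (SD, n = 3), a log2 difference of 0.21 (SE 0.16, adjusted p = 0.588) with a 95% interval from -0.15 to 0.56. The sign held in all 15 alternatives, and the value ranged from 0.13 to 0.28. The 4 genes most like TFRC over the arrays were an uncharacterised locus (LOC100848895), HSDL2, MRPL19 and MINDY2, with r of 0.99 each and rho between 0.77 and 1, and 402 of 8049 genes had r above 0.9. Among the members TFRC ran opposite to ALAS2 (r = -0.94, rho = -0.94), the other probe set tested whose breeds did not overlap. This was the most negative r of 78 pairs of member probe sets. The probe sets separated the breeds in opposite directions, which by itself pulls r below 0, so no link between the genes is read from it.

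TF is best known as a product of the liver. Its probe set read 29.7, 23.9 and 59.7 in Japanese Black and 50.2, 45.0 and 16.9 in Holstein. The highest animal was Japanese Black 3 and the lowest Holstein 3, a 3.53-fold range that crossed the breeds. The log2 difference was 0.02 (SE 0.32, adjusted p = 0.988), with a 95% interval from -0.70 to 0.74; it was -0.30 without Holstein 3 and -0.26 without Japanese Black 3, and between 0.11 and 0.21 without any 1 of the other animals.

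**Figure D3:**
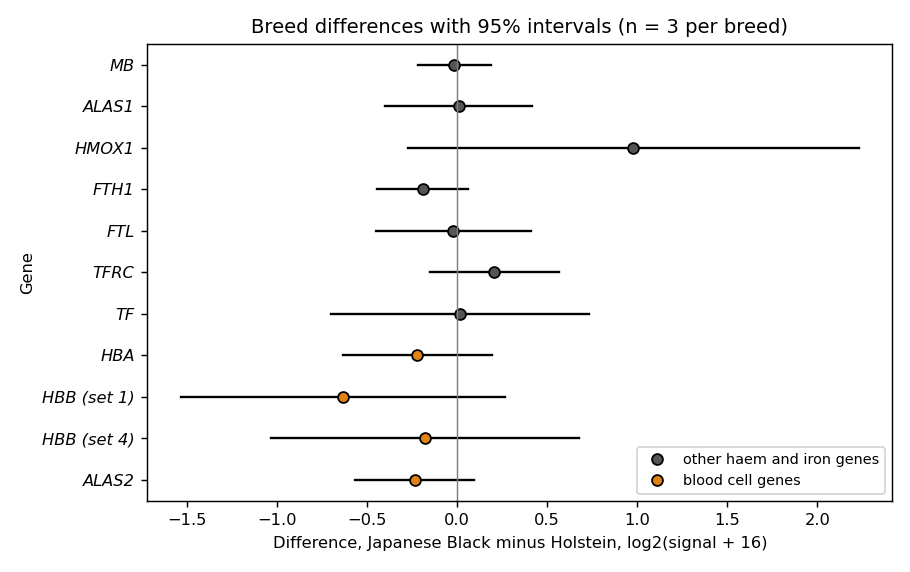
Difference between breeds, Japanese Black minus Holstein, in log2(signal + 16) units for the 11 tested probe sets; the points are limma's estimates and the bars 95% intervals (n = 3 per breed). All 11 intervals include 0; the widest is that of HMOX1, from -0.27 to 2.23, and the narrowest that of MB, from -0.22 to 0.19.

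The wider genes of iron handling moved in both directions. Of 25 genes listed for iron uptake, storage and export 14 were annotated and 13 tested; 9 were higher and 4 lower in Japanese Black, 0 passed, and the median was 0.07. The median was -0.04 without Holstein 1, -0.03 without Japanese Black 3 and 0.16 when the dimmer 50% of the table was dropped. CP, ceruloplasmin, the copper enzyme that oxidises iron for loading onto transferrin, read 8.38, 17.1 and 22.0 in Japanese Black and 33.1, 31.99 and 39.8 in Holstein. Its breeds were separate, with a log2 difference of -0.70 (SE 0.19, adjusted p = 0.310) at a dim probe set, and its 2 other probe sets were too dim to test. NCOA4, the receptor that delivers ferritin to the lysosome, read 1515, 1439 and 1647 in Japanese Black and 1299, 1216 and 1053 in Holstein. These did not overlap either, and the difference was 0.36 (SE 0.14, adjusted p = 0.371). With PCBP2, higher in Japanese Black, the breeds did not overlap at 3 of the 13 genes tested, against 19.8% of all probe sets tested. SLC39A14, a metal importer, had a difference of 0.32 (SE 0.21, adjusted p = 0.521).

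Among the genes that sense iron or oxygen 6 of 8 were tested; 4 were higher and 2 lower, 0 passed, and the median was 0.01. After quantile normalization 1 was higher and the median was -0.08, and after median centring 5 were higher. ACO1, the iron regulatory protein that doubles as cytosolic aconitase, read 246, 196 and 373 in Japanese Black and 344, 307 and 335 in Holstein, with a difference of -0.31 (SE 0.23, adjusted p = 0.578). NFE2L2, which encodes NRF2, had a difference of 0.24 (SE 0.20, adjusted p = 0.619) and KEAP1, its inhibitor, one of 0.02 (SE 0.13, adjusted p = 0.957).

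Iron-sulphur cluster assembly uses iron in the mitochondrion. Of 20 listed genes 13 were annotated and tested; 8 were higher and 5 lower, 0 passed, 3 had an unadjusted p under 0.05, and the median was 0.14. The median stayed positive in all alternatives, between 0.05 and 0.22. ISCA1, an assembly factor, read 3224, 3072 and 3723 in Japanese Black and 2563, 2653 and 2274 in Holstein, with a difference of 0.42 (SE 0.13, adjusted p = 0.321). NFU1, a carrier of the finished cluster, went the other way, at 1121, 789 and 1296 against 1690, 1472 and 1343, with a difference of -0.51 (SE 0.20, adjusted p = 0.371). CISD2, a membrane protein that holds a cluster, had a difference of 0.55 (SE 0.22, adjusted p = 0.381). The breeds did not overlap at 4 of the 13 genes tested, against 19.8% of all probe sets tested. Of these, ISCA1 and CIAO1 were higher and NFU1 and NUBP1 lower in Japanese Black. Over all 8050 genes represented by their brightest probe set and tested, 48.7% were higher in Japanese Black, the median was -0.01 and 11.3% had an unadjusted p under 0.05, so neither the counts nor the medians of these lists are called particular to them.

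**Figure D4:**
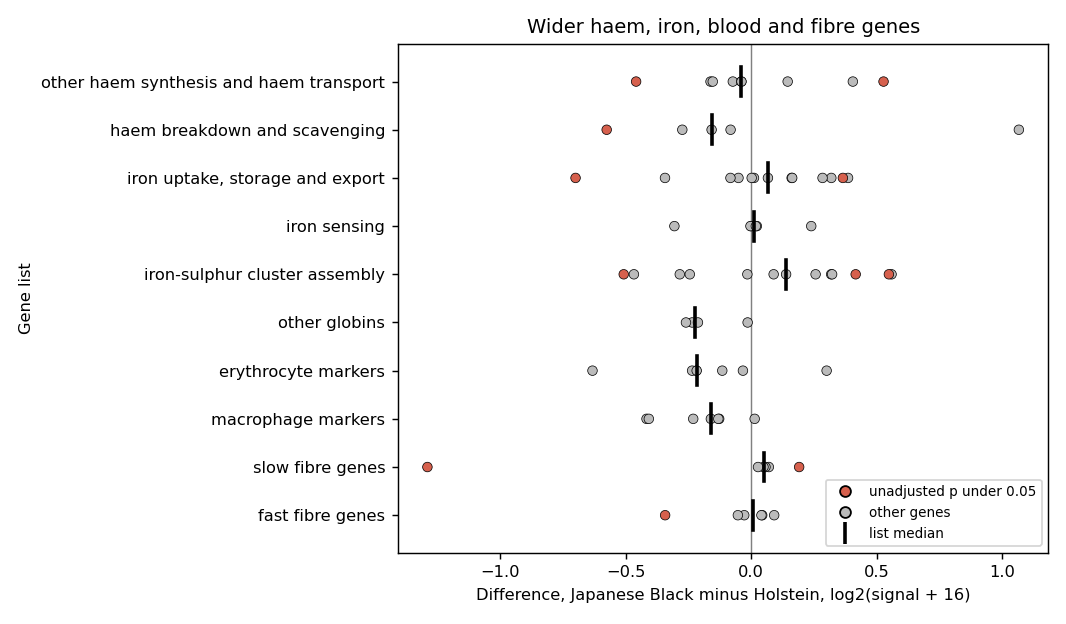
Difference between breeds in log2(signal + 16) units for every tested gene of 10 lists, 1 point per gene at its brightest probe set; black bars are list medians and red points genes with an unadjusted p under 0.05. Lists have points on both sides of 0, except the other globins, where HBM crosses 0 under quantile normalization or median centring; 0 genes pass an adjusted p of 0.05, and MYL3 lies farthest to the left at -1.29.

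The genes of blood cells were dim in every animal. In whole muscle, fewer cells of a type and less RNA per cell cannot be told apart. HBB, the beta chain of haemoglobin, had 4 probe sets. The brightest (set 1) read 22.5, 43.8 and 94.6 in Japanese Black and 137, 71.6 and 54.8 in Holstein. The highest animal was Holstein 1 and the lowest Japanese Black 1, a 6.08-fold range, and the breeds overlapped. The means were 53.6 ± 37.0 (SD, n = 3) and 87.7 ± 43.3 (SD, n = 3), a log2 difference of -0.63 (SE 0.40, adjusted p = 0.514) with a 95% interval from -1.53 to 0.27. The difference was -1.03 without Japanese Black 3, -0.27 without Japanese Black 1 and -0.38 with an offset of 64.

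The 3 dimmer HBB probe sets did not give the same picture. Set 4, of a type that may also bind related transcripts, read 12.2, 13.3 and 49.2 in Japanese Black and 52.8, 16.7 and 18.5 in Holstein. It was high in the same animals as set 1, Holstein 1 and Japanese Black 3, and over the 6 arrays these sets had r = 0.88 (rho = 0.94). Its log2 difference was -0.18 (SE 0.38, adjusted p = 0.859). Set 2 lay between 3.42 and 13.6 and set 3 between 0 and 7.55, both under the level needed for testing; the dimmest tested probe set had a level of 16.4 intensity units. Set 2 had its Japanese Black animals above and set 3 its Japanese Black animals below all Holstein animals, so these sets opposed each other. In the annotation each of them shares its source sequence with a probe set named HBG, a fetal globin gene. These HBG sets were brighter, at 60.2 to 119 and 50.8 to 88.6. Genes of the beta globin family are closely related in sequence, so the assignment of these probe sets to 1 gene is uncertain.

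HBA, the alpha chain of haemoglobin, read 43.6, 42.8 and 26.2 in Japanese Black and 45.6, 40.9 and 50.6 in Holstein. The lowest animal was Japanese Black 3, where HBB was second highest, so HBA and HBB did not rise and fall together over these animals. The means were 37.5 ± 9.79 (SD, n = 3) and 45.7 ± 4.86 (SD, n = 3), a log2 difference of -0.22 (SE 0.18, adjusted p = 0.621). It was -0.06 without Japanese Black 3, the lowest animal, and lay between -0.31 and -0.11 in the other alternatives. ALAS2, the red cell form of aminolevulinate synthase, read 23.1, 21.7 and 19.7 in Japanese Black and 30.1, 24.5 and 29.9 in Holstein. Its breeds did not overlap, with a gap of 1.39 intensity units. The means were 21.5 ± 1.72 (SD, n = 3) and 28.2 ± 3.21 (SD, n = 3), a log2 difference of -0.24 (SE 0.15, adjusted p = 0.508) with a 95% interval from -0.56 to 0.09. The sign held in all 14 alternatives in which ALAS2 was tested, and the value ran from -0.37 with an offset of 1 to -0.11 with an offset of 64.

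**Figure D5:**
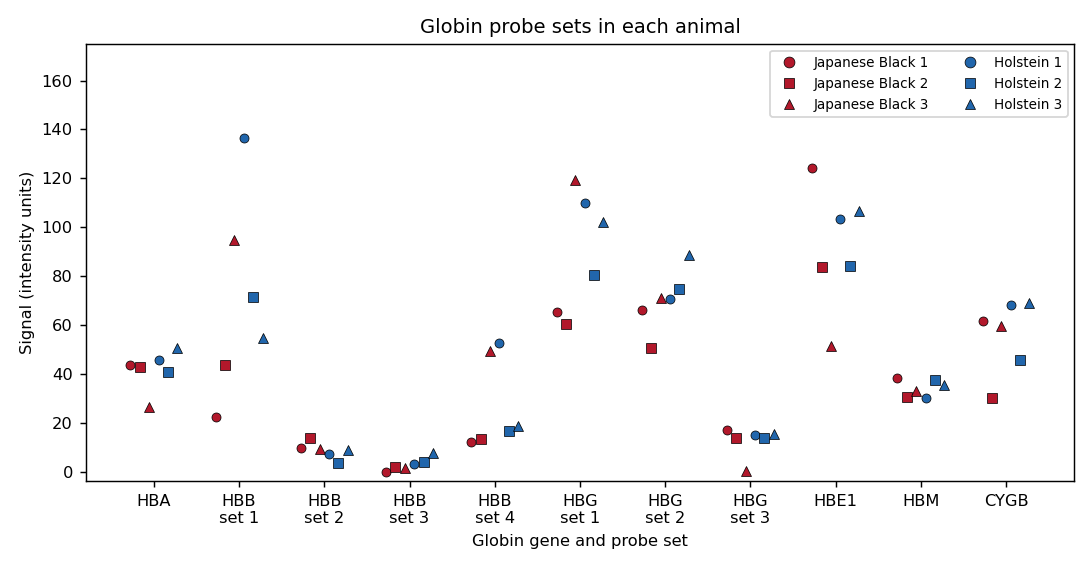
Signal in intensity units of every globin probe set in each animal (red, Japanese Black; blue, Holstein; shapes mark animals 1 to 3). HBB set 1 spans 22.5 to 137 and is high in Holstein 1 and Japanese Black 3, HBB sets 2 and 3 stay below 14, and HBA lies between 26.2 and 50.6.

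The other red cell genes were read beside the members. Of 14 erythrocyte markers, the members HBA, HBB and ALAS2 included, 9 were annotated and 7 tested; 1 was higher and 6 were lower in Japanese Black, 0 passed, and the median was -0.22. The median stayed negative in all alternatives, between -0.27 and -0.11. Of the defining membrane genes SLC4A1, the anion exchanger of red cells, lay between 0 and 7.14 and EPB42 between 0.01 and 15.6, both too dim to test. RHAG, a membrane glycoprotein of the Rh complex, lay between 20.2 and 28.8, close to the signals of ALAS2, with overlapping breeds and a difference of -0.12 (SE 0.15, adjusted p = 0.753). AHSP, the chaperone of alpha globin, read 66.6, 69.5 and 75.2 in Japanese Black and 82.2, 76.8 and 94.9 in Holstein, with a difference of -0.22 (SE 0.16, adjusted p = 0.564). GYPC, a glycophorin that other cells make too, was the gene with the smallest p and lay opposite to the rest, at 4204, 3529 and 4719 against 3056, 3852 and 3179, a difference of 0.30 (SE 0.15, adjusted p = 0.435). The other globin genes HBG, CYGB and HBE1 were lower in Japanese Black by their means, HBM differed by -0.01 (0.01 after quantile normalization), 0 of 4 passed, and the median was -0.22. The 3 of them with the smallest p were HBG (-0.26, SE 0.24, adjusted p = 0.656), CYGB (-0.24, SE 0.24, adjusted p = 0.687), the cytoglobin of connective tissue cells, and HBE1 (-0.21, SE 0.26, adjusted p = 0.741).

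Over the 6 arrays the genes most like HBB set 1 were SHKBP1, CSF2RB, TKT and PTGER4, with r of 0.98, 0.98, 0.97 and 0.97 and rho of 1 each. Of 8049 genes compared 53 had r above 0.9. These are the closest of many genes over 6 arrays, as a description, and no link between the genes is read from them. CSF2RB is a cytokine receptor chain of leukocytes and PTGER4 a prostaglandin receptor. Holstein 1, where HBB was highest, had the lowest level of the macrophage markers, -0.46 from its average. Of 7 tested 1 was higher and 6 were lower in Japanese Black, 0 passed, and the median was -0.16, between -0.55 and -0.02 over the alternatives. Those with the smallest p were CSF1R (-0.42, SE 0.28, adjusted p = 0.541), C1QB (-0.41, SE 0.40, adjusted p = 0.671) and CD14 (-0.23, SE 0.26, adjusted p = 0.717).

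The arrays were alike in their median signal, from 48.5 to 54.7. Holstein 3, the lowest array for TFRC and TF and the highest for FTH1 and HBA, stood apart in other readings. Its BioB control read 471 against 245 to 309 in the other arrays, and its BioDn control 3352 against 2014 to 2593. Its brightest probe set read 22468 against 16534 to 17450. The part of this in the TFRC, TF, FTH1 and HBA values was not tested. The ratio of the 3′ to the 5′ actin control lay between 1.11 and 1.14 in Japanese Black and between 1.003 and 1.07 in Holstein, so this sign of RNA and labelling quality separated the breeds. The same ratio for the GAPD control overlapped, at 0.858 to 0.928 in Japanese Black and 0.796 to 0.884 in Holstein. Because the actin ratio separated the breeds, its part in the differences of TFRC, ALAS2 or any other gene cannot be told apart from breed here. It was not tested. The labels do not say how the samples were handled in batches.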

How the data were processed

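Total RNA of 6 muscles was labelled with biotin and hybridised to Affymetrix arrays, 1 per animal. Values are the authors' deposited linear intensity signals, 1 for each probe set; the submitters' processing notes name GCOS 1.1.1 and Affymetrix Expression Console 1.1, and how probes were summarised is not given in the sources used here. Detection calls were not used.

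Control probe sets were dropped (24016 remained), 16 was added, log2 was taken, and the dimmest 25% by mean were set aside (18012 tested). The comparison of Japanese Black minus Holstein used limma 3.58.1 under R 4.3.3 (eBayes with intensity trend, 4.91 prior degrees of freedom), two-sided, with Benjamini-Hochberg adjustment over the table at 0.05. The design text mentions a paired test; no pairs are labelled, so the fit was unpaired. The number of arrays limits the precision.

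The annotation gives 13292 probe sets 1 symbol, and all 10 genes matched RefSeq's ARS-UCD2.0 table. No build is named, so no coordinates are given. The wider lists take each gene at its brightest probe set; up to 3 genes of smallest p were named per list, and 4 by likeness to MB, HBB and TFRC. Members and lists were chosen with earlier results of these data known. On simulated data for this comparison over 18012 probe sets, 45.6% of differences of 1 and 90.2% of differences of 2 (log2) were recovered. Of 709 calls 30 were false. The differences were planted outside the dimmest probe sets, with normal noise. These rates need not hold for the real table, where 3 probe sets passed, or for genes of wide spread such as HMOX1. Alternatives covered the offset (1, 64), the filter (none, 50%), scaling, the variance model, the methods' t-test and each array left out. Figures used matplotlib 3.10.9.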

Additional observations from a re-analysis of the deposited data

How the results depend on the processing

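No member passed an adjusted p of 0.05 under any of 15 alternatives (limma, and the methods' t-test run unpaired). At an unadjusted p under 0.05 the count of members was 0, and it became 2 of 11 with array weights (FTH1 and HBB set 1, against 12.5% of all probe sets), 1 with the methods' t-test (ALAS2, against 10.03%) and between 0 and 2 when single arrays were left out: HMOX1 without Japanese Black 1 (10.4%) or without Holstein 2 (14.6%), FTH1 and HBB set 1 without Japanese Black 3 (10.7%). Over the whole table the count past an adjusted p of 0.05 was 3. It was 10 with array weights, 0 with the dimmer 50% left out, 0 with an offset of 1, 0 with the methods' t-test, and between 0 (without Japanese Black 1, 2 or 3) and 15 (without Holstein 2) with single arrays left out; it was 1 without Holstein 3. The sign of the members' differences changed in 18 of 161 recomputed values, all of them for MB, ALAS1, FTL, TF or HBB set 4. Of 225 recomputed list medians 18 moved by more than the spread between animals. No paired analysis was possible because no label pairs the animals. Dim signals limit the globin, TF and TFRC values, and brightness near the top of the range those of MB, FTH1 and the brightest fibre genes such as TNNC1.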

Other observations

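Levels of the members were set beside 3 marker lists across the animals, and 0 of 33 relations passed after adjustment. With 6 arrays the smallest permutation p possible was 0.00278. No single relation could therefore have passed alone after that adjustment, however close it was. The count of 0 says little, and the values are descriptions. Relative to its average, the mean log2 level of 4 adipocyte markers was 1.54 in Japanese Black 3, the animal with the highest TF signal, and -1.54 in Holstein 3, the animal with the lowest. Holstein 1 had the second highest TF signal, 50.2, at an adipocyte level of 0.22, and Holstein 2 a TF signal of 45.0 at a level of 1.01. Over the 6 arrays r was 0.93 (exact permutation p = 0.0139, adjusted p = 0.229) and rho 0.89 (exact permutation p = 0.0333, adjusted p = 0.481). It was 0.77 without the arrays farthest from the median, 0.95 within Japanese Black and 0.92 within Holstein, each with 3 animals. HBA ran opposite to the same list, with r = -0.82 (exact permutation p = 0.0208, adjusted p = 0.229) and rho = -0.83 (exact permutation p = 0.0583, adjusted p = 0.481). Its r was -0.43 without the arrays farthest from the median, -0.996 within Japanese Black and -0.975 within Holstein, each breed with 3 animals.

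MB, with a range of only 1.12-fold, was set beside the macrophage markers. Their highest animal was Holstein 3, while that of MB was Japanese Black 3. MB and this list had r = 0.96 (exact permutation p = 0.0139, adjusted p = 0.229) and rho = 0.94 (exact permutation p = 0.0167, adjusted p = 0.481). Here r was 0.999 without the arrays farthest from the median, 0.9999 within Japanese Black and 0.96 within Holstein, each breed with 3 animals. All of these p were two-sided and adjusted over the 33 relations of 11 probe sets with 3 lists (adipocyte, macrophage and heat shock), which were chosen after seeing the data. HMOX1 and the heat shock list had r = 0.59 (exact permutation p = 0.219, adjusted p = 0.775) and rho = 0.37 (exact permutation p = 0.497, adjusted p = 0.942). Without the arrays farthest from the median r was -0.66, so that relation rests on those arrays. The breeds also went in opposite directions, with r = 0.89 within Japanese Black and -0.80 within Holstein, each with 3 animals.

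The likeness rule was also applied to HMOX1, FTL and ALAS1 after their values were seen. The genes nearest to HMOX1 were TM2D2, CEMIP2, PSAP and SMG1, with r between 0.98 and 0.99 and rho of 1 each. These values rest in part on Japanese Black 2, since r was 0.84 to 0.92 without the arrays farthest from the median of HMOX1. MCL1, a survival factor of the BCL2 family, was nearest to FTL (r = 0.98, rho = 0.94), and DHRS4 was nearest to ALAS1 (r = 0.99, rho = 1).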
